A study of Rattus norvegicus with 20 samples.

Results

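The transcripts of 9 complement genes were followed through 20 RNA-sequencing libraries of cultured rat microglia. They are the 3 chains of C1q (C1QA, C1QB and C1QC), the central component C3, factor B (CFB) and properdin (CFP) of the alternative pathway, the anaphylatoxin receptors C3AR1 and C5AR1, and the C1 inhibitor SERPING1. They were chosen by name, as the rows of the deposited table with these symbols, and all 9 were present among its 17310 symbols. Symbols are in capitals below, as in that table. Microglia are macrophages that live in the brain. Here they had been panned on CD11b, an integrin of myeloid cells, from cortex of male Sprague-Dawley rats 21 days of age, and every group shared this source and 5 days of serum-free culture. The compounds then entered with an exchange of 50% of the medium. The 5 groups of 4 libraries were PBS, the control; Morphine at 1 uM, an opioid receptor agonist; LPS at 1 ng/mL, a bacterial endotoxin that acts on Toll-like receptor TLR4; PAM3CSK4 at 1 ng/mL, a synthetic lipopeptide ligand of TLR2; and Zymosan at 100 ug/mL, yeast cell wall particles that engage TLR2. Zymosan also engages dectin-1, which is not a Toll-like receptor, so it is called a TLR agonist below for brevity only. The labels do not give the hours of exposure before lysis. Nothing in the labels says whether the libraries of a group were separate cultures or animals, so the p-values below measure only the spread between these libraries, which may be technical.

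Complement is a cascade of proteins that marks particles and cells for uptake. C1q binds its target and starts the classical pathway through the proteases C1r and C1s, lectins start a parallel route, and the alternative pathway, with factor B and properdin, amplifies the deposition of C3 fragments. Small fragments released from C3 and C5 signal through the G-protein-coupled receptors C3AR1 and C5AR1, and SERPING1 blocks the C1 proteases. Microglia are a main source of C1q in the brain, where C1q and C3 are known for marking synapses that microglia then remove.

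With each of the 3 TLR agonists the 3 C1q chains and properdin fell and C3AR1 rose against PBS, C5AR1 and SERPING1 were not called, and C3 had a higher mean that passed the test only in some fits. The call of C1QA with zymosan was close to the threshold and was lost in 11 of 31 other fits. Factor B was near the limit of detection in all groups. With morphine no member was called.

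The promoters of 5 members are in the RefSeq promoter table of the rat assembly GRCr8, a later build than the rn6 named in the submitters' processing notes. They are shown because 4 of them (C1qa, C1qb, Cfp and C3ar1) belong to genes that were called with every agonist, in both directions, and the fifth is that of C3. Each is the 250 bases before the annotated start, read 5′ to 3′ on the gene's strand, and capitals mark a match to a motif searched.
C1qa, chr5:154419934-154420183, minus strand: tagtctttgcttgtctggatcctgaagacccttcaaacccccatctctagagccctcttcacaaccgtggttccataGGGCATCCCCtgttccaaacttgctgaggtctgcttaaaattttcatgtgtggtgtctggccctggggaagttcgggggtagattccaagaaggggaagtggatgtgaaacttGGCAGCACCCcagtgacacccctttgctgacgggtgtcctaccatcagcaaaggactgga
C1qb, chr5:154407828-154408077, minus strand: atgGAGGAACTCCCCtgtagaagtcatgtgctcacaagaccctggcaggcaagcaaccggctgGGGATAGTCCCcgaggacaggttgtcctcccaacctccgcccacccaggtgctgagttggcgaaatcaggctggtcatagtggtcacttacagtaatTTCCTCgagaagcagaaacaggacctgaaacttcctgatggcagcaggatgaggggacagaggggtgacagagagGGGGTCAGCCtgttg
C3, chr9:2201340-2201589, minus strand: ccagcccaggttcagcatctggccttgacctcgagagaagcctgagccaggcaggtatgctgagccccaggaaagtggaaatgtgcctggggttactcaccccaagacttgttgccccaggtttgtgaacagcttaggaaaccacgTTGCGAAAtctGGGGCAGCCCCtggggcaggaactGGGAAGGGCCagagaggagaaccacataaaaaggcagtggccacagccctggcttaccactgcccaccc
Cfp, chrX:3715301-3715550, plus strand: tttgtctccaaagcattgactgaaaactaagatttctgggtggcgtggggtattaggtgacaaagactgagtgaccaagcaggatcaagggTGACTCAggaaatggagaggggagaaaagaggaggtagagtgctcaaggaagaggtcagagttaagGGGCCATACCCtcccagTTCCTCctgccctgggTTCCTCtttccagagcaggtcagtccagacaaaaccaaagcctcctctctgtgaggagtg
C3ar1, chr4:157756531-157756780, minus strand: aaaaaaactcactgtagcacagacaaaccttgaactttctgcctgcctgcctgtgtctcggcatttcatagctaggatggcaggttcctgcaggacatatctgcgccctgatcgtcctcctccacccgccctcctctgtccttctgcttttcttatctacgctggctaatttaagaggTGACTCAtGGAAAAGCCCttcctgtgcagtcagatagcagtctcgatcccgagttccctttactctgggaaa
The search covered these bases and the 50 after the start on both strands. An NF-kB motif (GGG, any 5 bases, CC) was matched in all 5 promoters, and 47.3% of the 33469 promoters in the table hold 1 or more. It was found both before genes that were lower and before C3ar1, which was higher. C3 also held the C/EBP motif (TTGCNNAA, in 10.6% of promoters), 104 bases before its start. The AP-1 motif (TGANTCA, in 7.3%) was matched in Cfp, 159 bases before the start, and in C3ar1, 72 bases before it. The PU.1 core (GAGGAA, in 27.6%) was matched in C1qb and in Cfp. In C1qb its first copy overlaps an NF-kB match in a single run of capitals, and 1 more NF-kB match lies 22 bases after the start, outside the bases printed. In C1qb, C3 and Cfp some NF-kB matches overlap each other by all but 1 base. The ISRE motif, a pair of GAAA units with 2 bases between them (in 3.9%), was matched in none of these windows. These are matches of letters, not binding sites. In the RefSeq order of genes C1qb, C1qc and C1qa are adjacent.

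Levels are FPKM, fragments counted relative to the length of the transcript and the size of the library. Of the 9 members 8 passed the filter of at least 1 FPKM in at least 4 libraries and were tested with the other genes that did, 8858 in all. Whole numbers of fragments that fit the FPKM values were found from their steps for 8188 of the tested genes (92.4%) and for every member. The smallest fitting numbers were taken, which can be a multiple of the real ones. Those of C3 were even in all libraries but LPS 2 (327), and those of C3AR1 in all but zymosan 2 (3471). Both may thus be too high. Over the genes so resolved these numbers summed to 8928180 to 17568900 in a library, which may be too high for the same reason. By the worth of 1 fragment, the deepest library was 1.79 times as deep as the shallowest. Fragments after PCR are not independent molecules, so fragment numbers given below bear on counting error only. A set of 7 libraries (replicate 1 of every group, Morphine 2 and LPS 2) stood apart from the other 13: the median tested gene was at 5.64 to 8.16 FPKM in them and at 8.12 to 10.9 FPKM in the others. Among microglial markers all 10 reached 1 FPKM in some library, with a summed level of 1160 to 1410 FPKM in PBS, 1040 to 1330 with morphine, 554 to 674 after LPS, 542 to 608 after PAM3CSK4 and 665 to 765 after zymosan. Of the endothelial markers 3 of 4 reached 1 FPKM in some library (FLT1 up to 19.3, with CLDN5 at 0 throughout), of those of the oligodendrocyte lineage 1 of 6 (MBP up to 10.7, with MAG at 0) and of the astrocyte markers 1 of 6 (SLC1A3 up to 4.4, with GFAP and AQP4 at 0). Their summed levels overlapped between PBS and every agonist group, at 6.93 to 19, 6.02 to 11.1 and 1.29 to 4.52 FPKM in PBS. Lymphocyte markers summed to at most 1.29 FPKM in any library, with CD3E at 0.

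**Figure D1:**
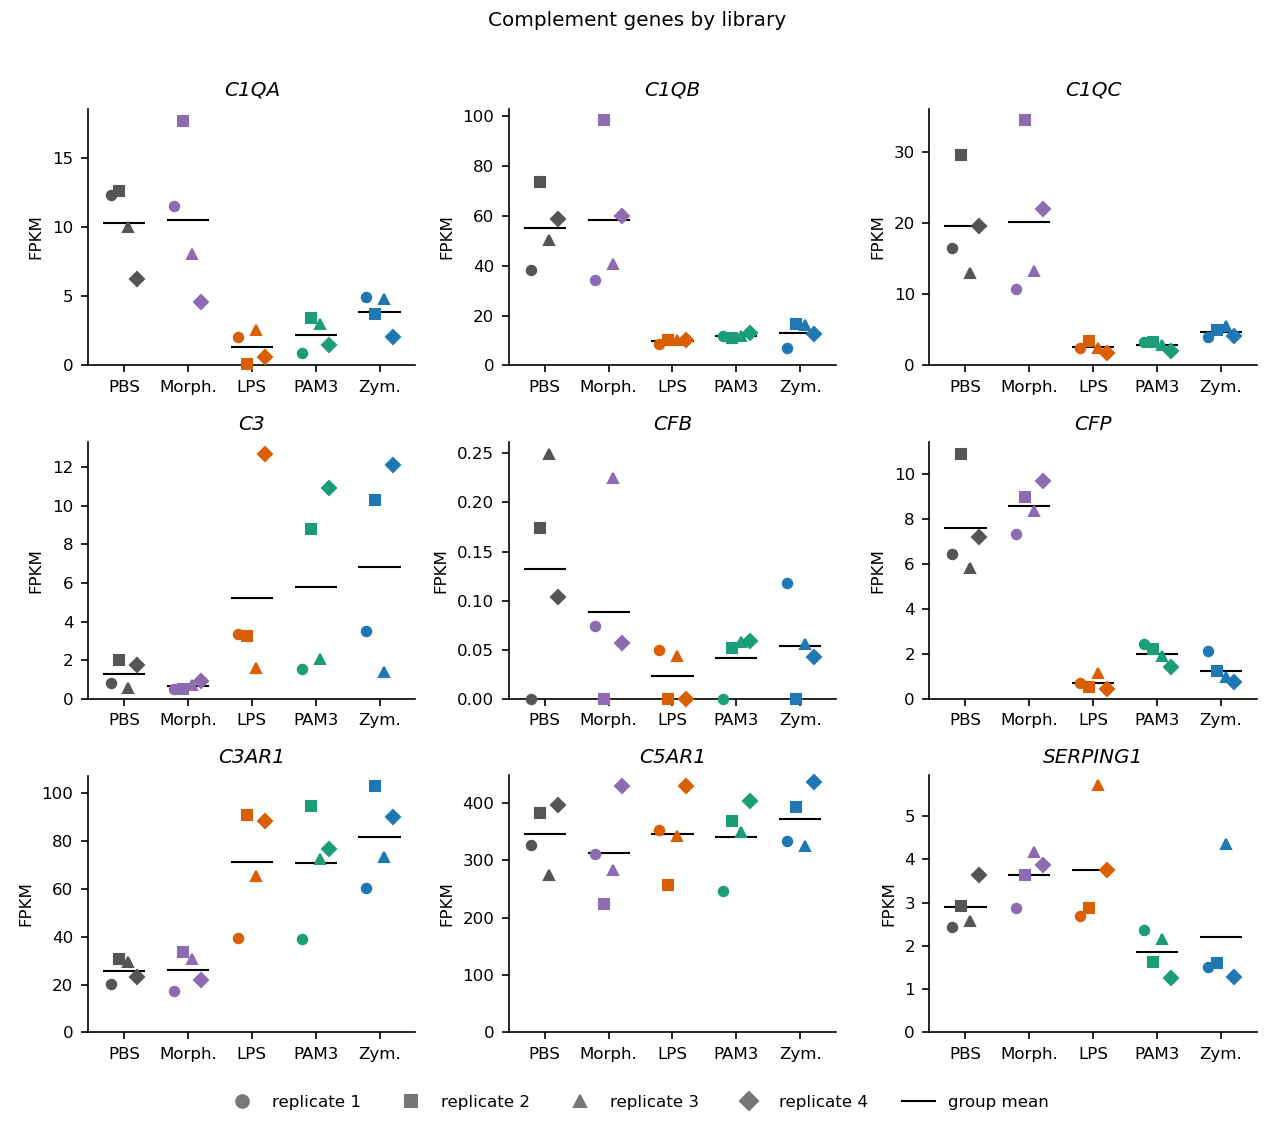
Level of each of the 9 complement genes in FPKM (vertical axes, each from 0) in the 4 libraries of each group (Morph., Morphine; PAM3, PAM3CSK4; Zym., Zymosan), with marker shapes for the replicate number and a line at the group mean. C1QA, C1QB, C1QC and CFP sit lower in all 12 agonist libraries than in any PBS library, C3AR1 sits higher in all of them, and C5AR1 overlaps across all groups.

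In PBS libraries 1 to 4, C1QB, the B chain, was at 38.3, 73.4, 50.4 and 58.5 FPKM. It was at 8.74, 10.2, 10.1 and 10.1 FPKM after LPS, at 11.8, 10.8, 11.7 and 13.1 after PAM3CSK4 and at 6.84, 16.5, 16.3 and 12.4 after zymosan. No agonist library reached the lowest PBS library, and PBS varied more between libraries than LPS or PAM3CSK4 did: the means were 55.2 ± 14.7 (SD, n = 4) in PBS, 9.79 ± 0.704 after LPS, 11.9 ± 0.954 after PAM3CSK4 and 13 ± 4.53 after zymosan. On the log2(FPKM + 1) scale, where low genes show too small a change, C1QB fell by 2.34 after LPS (SE 0.28, limma adjusted p = 4.46e-06), by 2.09 after PAM3CSK4 (adjusted p = 1.85e-05) and by 2.04 after zymosan (adjusted p = 4.39e-05).

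C1QC, the C chain, followed the same course at a lower level. It was at 16.4, 29.5, 13 and 19.5 FPKM in PBS libraries 1 to 4, and at 2.47, 3.43, 2.51 and 1.71 after LPS. After PAM3CSK4 it was at 3.24, 3.34, 2.89 and 2.05 FPKM and after zymosan at 4.02, 4.91, 5.54 and 4.06. Every agonist library was below every PBS library. The log2 differences from PBS were -2.51 after LPS (SE 0.29, limma adjusted p = 2.69e-06), -2.36 after PAM3CSK4 (adjusted p = 6.04e-06) and -1.82 after zymosan (adjusted p = 0.000174).

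C1QA, the A chain, had the lowest group means of the C1q transcripts per length. Its level was 12.3, 12.6, 10.0 and 6.23 FPKM in PBS libraries 1 to 4, and 2.03, 0.101, 2.58 and 0.638 after LPS, where LPS 2 rested on 1 fragment and LPS 4 on 4. It was 0.908, 3.43, 2.97 and 1.5 FPKM after PAM3CSK4 and 4.93, 3.72, 4.83 and 2.08 after zymosan. The groups again did not overlap with PBS, and the narrowest gap was that between PBS 4 and zymosan 1. C1QA fell by 2.38 after LPS (SE 0.40, limma adjusted p = 0.000157), by 1.86 after PAM3CSK4 (adjusted p = 0.00172) and by 1.21 after zymosan (adjusted p = 0.0413). The zymosan call was close to the threshold: it was lost on rescaling the libraries to a common median ratio (-1.02, adjusted p = 0.13), with a pseudocount of 0.1 FPKM (-1.4, adjusted p = 0.159), and when any of PBS 1, PBS 2, PBS 3, zymosan 2, zymosan 3 or zymosan 4 was left out (limma adjusted p up to 0.138).

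The proportion of the C1q chains within a library varied. The ratio of C1QB to C1QC, per length, ran from 2.34 to 3.87 in PBS (median 2.75), from 2.73 to 3.21 with morphine (median 2.96), from 2.98 to 5.91 after LPS (median 3.79), from 3.24 to 6.42 after PAM3CSK4 (median 3.85) and from 1.70 to 3.37 after zymosan (median 3.00), so that each of these groups overlapped with PBS, while morphine and PAM3CSK4 did not overlap with each other. The ratio of C1QB to C1QA ran from 3.11 to 9.39 in PBS and from 3.93 to 102 after LPS, the highest being LPS 2 with its single C1QA fragment. Summed levels of other markers moved alongside the C1q chains: the sum of the microglial list given above was lower in every agonist library than in any PBS library. A sum is weighted to its most abundant genes, here CSF1R at up to 596 FPKM, and does not stand for each marker. ITGAM, on the same list and named after its values were seen, overlapped between PBS and every agonist group. Its means were 33.1 FPKM in PBS and 26.3, 36.2 and 37.8 after LPS, PAM3CSK4 and zymosan. ITGAM also differed strongly between the 2 library sets (-1.59 on the log2 scale, beside a median of -0.36), which widens its range in each group. It does not stand for the other markers of the list, which are not given singly. For macrophages of the brain's borders, 2 of 4 markers reached 1 FPKM, CD163 was at 0 throughout, and the sum was 5.19 to 18.9 FPKM in PBS, 1.4 to 3.99 after LPS, 0.789 to 4.25 after PAM3CSK4 and 2.86 to 7.18 after zymosan. The part of either in the C1q result was not tested. In bulk RNA fewer cells of a type and less RNA per cell cannot be told apart.

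C3 is the component on which all complement routes converge. It was at 0.824, 2.04, 0.566 and 1.76 FPKM in PBS libraries 1 to 4 (36 to 232 recovered fragments, which may be too many). After LPS it was at 3.38, 3.25, 1.62 and 12.7 FPKM, after PAM3CSK4 at 1.55, 8.79, 2.08 and 10.9, and after zymosan at 3.50, 10.3, 1.4 and 12.1. Each agonist group overlapped with PBS in its lowest library, and within a group the libraries differed by several fold, with replicates 2 and 4 above 1 and 3 in PBS, PAM3CSK4 and zymosan, and after LPS replicate 4 far above the rest. C3 passed the filter only through the agonist libraries, since 2 PBS libraries and no morphine library reached 1 FPKM. Such a filter favours a rise, so the calls of C3 in any fit below are no support for one.

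The means of C3 were 1.3 ± 0.711 FPKM in PBS, 5.23 ± 5.04 after LPS, 5.82 ± 4.70 after PAM3CSK4 and 6.81 ± 5.16 after zymosan (SD, n = 4 each). The log2 differences from PBS were 1.20 after LPS (SE 0.57, 95% interval 0.01 to 2.39, limma adjusted p = 0.115), 1.31 after PAM3CSK4 (0.12 to 2.51, adjusted p = 0.0961) and 1.51 after zymosan (0.32 to 2.71, adjusted p = 0.0728), none of them called. After rescaling, all 3 were called, at 1.48 (adjusted p = 0.0461), 1.49 (adjusted p = 0.0454) and 1.62 (adjusted p = 0.0397). For LPS, leaving out LPS 4 lowered the difference to 0.72. The zymosan difference was called without zymosan 3 (1.98, limma adjusted p = 0.0204) or without LPS 4 (adjusted p = 0.0469), and that of PAM3CSK4 without PAM3CSK4 replicate 1 (1.68, adjusted p = 0.0416).

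Libraries that share a replicate number deviated together in PBS, PAM3CSK4 and zymosan, and C3 shows it. Against the PBS library of the same number, C3 was 1.88, 4.32, 3.68 and 6.19 times as high in PAM3CSK4 libraries 1 to 4 and 4.24, 5.05, 2.48 and 6.87 times as high in the zymosan libraries, above 1 in 4 of 4 for both. With the replicate number as a block in limma over all 20 libraries, the spread was smaller. C3 was then called higher after PAM3CSK4 (1.31, SE 0.36, adjusted p = 0.00778) and after zymosan (1.51, adjusted p = 0.00404). That fit includes LPS and morphine. With the block in PBS, PAM3CSK4 and zymosan alone, the SE was 0.26 and limma's adjusted p was 0.00156 and 0.000886. For LPS the ratios were 4.10, 1.59, 2.86 and 7.23. The numbers did not pair the LPS and PBS libraries by the criterion used. Of the neutrophil markers, 2 of 6 reached 1 FPKM, MPO, ELANE and MMP8 were at 0 throughout, and the sum was 0 to 1.49 FPKM in PBS, 1.29 to 5.13 after LPS, 1.94 to 4.08 after PAM3CSK4 and 0.584 to 5.37 after zymosan. Of the neuronal markers, 2 of 5 reached 1 FPKM, RBFOX3, SYT1 and STMN2 were at 0 throughout, and the sum, led by TUBB3, was 2.90 to 6.59 FPKM in PBS and 9.79 to 20.5, 9.51 to 24.7 and 11.8 to 25.5 in the LPS, PAM3CSK4 and zymosan libraries. The part of either list in the C3 and C3AR1 values was not tested.

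**Figure D2:**
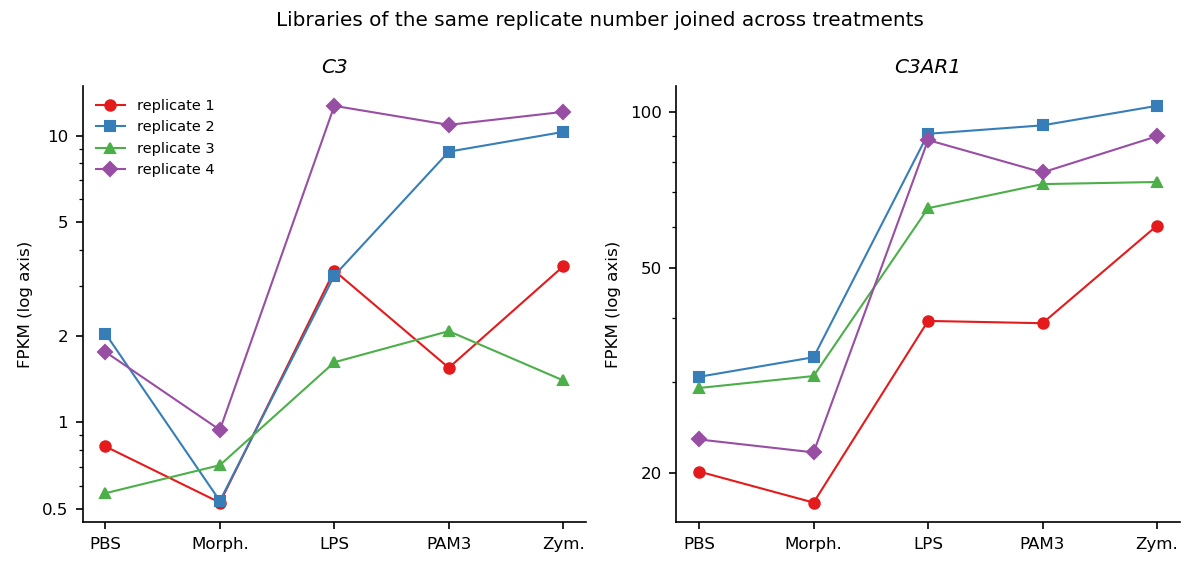
FPKM of C3 (left) and C3AR1 (right) on log axes in each group (Morph., Morphine; PAM3, PAM3CSK4; Zym., Zymosan), with the libraries of the same replicate number joined by a line. For C3 every line is higher at each agonist than at PBS although the lines lie far apart, from 1.4 to 12.1 FPKM after zymosan, while each C3AR1 line rises from PBS to each agonist within a narrower band. By the criterion used, the replicate numbers did not pair LPS or Morphine libraries with PBS. The joins to those groups are thus not to be read as pairs.

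Properdin, encoded by CFP, stabilizes the convertase of the alternative pathway. Its level was 6.43, 10.9, 5.83 and 7.19 FPKM in PBS libraries 1 to 4 and 0.687, 0.545, 1.14 and 0.432 after LPS, where each library rested on 4 to 15 fragments. After PAM3CSK4 it was 2.46, 2.24, 1.91 and 1.42 FPKM, and after zymosan 2.11, 1.22, 0.963 and 0.743. All agonist libraries were below all PBS libraries, and LPS and PAM3CSK4 did not overlap with each other. CFP fell by 2.32 after LPS (SE 0.21, limma adjusted p = 1.61e-07), by 1.49 after PAM3CSK4 (adjusted p = 2.69e-05) and by 1.93 after zymosan (adjusted p = 2.65e-06). From the recovered fragments the LPS difference was larger, at -3.41 on the log2 scale of limma's voom (adjusted p = 3.39e-06).

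CFB, factor B, which supplies the catalytic part of the alternative convertase, was between 0 and 0.249 FPKM and was not tested. In PBS libraries 1 to 4 it had 0, 5, 4 and 2 fragments, with morphine 2, 0, 4 and 1, after LPS 1, 0, 1 and 0, after PAM3CSK4 0, 1, 1 and 1, and after zymosan 3, 0, 1 and 1. The groups summed to 11, 7, 2, 3 and 5 fragments in that order. At this depth no difference in CFB could be resolved.

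C3AR1, the receptor of the C3a fragment, was the only member called higher with all 3 agonists in the fit on FPKM as deposited. It was at 20.1, 30.7, 29.2 and 23.2 FPKM in PBS libraries 1 to 4. After LPS it was at 39.4, 90.9, 65.2 and 88.4 FPKM, after PAM3CSK4 at 39.0, 94.4, 72.6 and 76.5, and after zymosan at 60.3, 103, 73.3 and 89.9. Every agonist library was above every PBS library, and replicate 1 was the lowest in each agonist group. The log2 difference from PBS was 1.37 after LPS (SE 0.29, limma adjusted p = 0.00126), 1.37 after PAM3CSK4 (adjusted p = 0.00141) and 1.61 after zymosan (adjusted p = 0.000521).

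C5AR1, the receptor of C5a, was by far the most abundant member per length and was not called in any comparison. Its mean was 345 ± 56.0 FPKM in PBS, 345 ± 70.8 after LPS, 341 ± 67.7 after PAM3CSK4 and 372 ± 52.8 after zymosan (SD, n = 4 each). Single libraries ran from 274 to 396 FPKM in PBS, 256 to 430 after LPS, 246 to 404 after PAM3CSK4 and 325 to 437 after zymosan, so the groups overlapped almost fully. The 95% intervals of the log2 difference were -0.43 to 0.42 after LPS, -0.45 to 0.40 after PAM3CSK4 and -0.31 to 0.54 after zymosan. The sign of the LPS value depends on the scaling: it was -0.01 (limma adjusted p = 0.978) as deposited and 0.43 (adjusted p = 0.0565) after rescaling.

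The ratio of C3AR1 to C5AR1 within a library, given without a test, was 0.0587 to 0.107 in PBS, 0.0511 to 0.149 with morphine, 0.112 to 0.355 after LPS, 0.159 to 0.257 after PAM3CSK4 and 0.181 to 0.262 after zymosan, with all agonist libraries above all PBS libraries. Morphine 2 and Morphine 3 also lay above the PBS libraries, and Morphine 2 above LPS 1. This ratio does not depend on the scaling of a library. Of the tested genes, C5AR1 stood at the 98.1 percentile of mean level in PBS and the 98.2 after LPS, whereas C3AR1 moved from the 74.1 to the 91.2 percentile.

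SERPING1, which inhibits the C1 proteases, was at 2.45, 2.93, 2.58 and 3.64 FPKM in PBS libraries 1 to 4 and at 2.70, 2.87, 5.72 and 3.75 after LPS. After PAM3CSK4 it was at 2.37, 1.63, 2.16 and 1.26 FPKM and after zymosan at 1.52, 1.61, 4.37 and 1.29. The PAM3CSK4 libraries all lay below the PBS libraries, and the zymosan libraries did so except replicate 3. None of the differences was called: the log2 values were 0.25 after LPS (95% interval -0.27 to 0.77, limma adjusted p = 0.453), -0.46 after PAM3CSK4 (-0.98 to 0.06, adjusted p = 0.189) and -0.37 after zymosan (-0.89 to 0.15, adjusted p = 0.363). Without zymosan 3 the zymosan difference was -0.65 and was called (adjusted p = 0.0442), and with library quality weights that of PAM3CSK4 was -0.60 and was called (limma adjusted p = 0.0303).

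**Figure D3:**
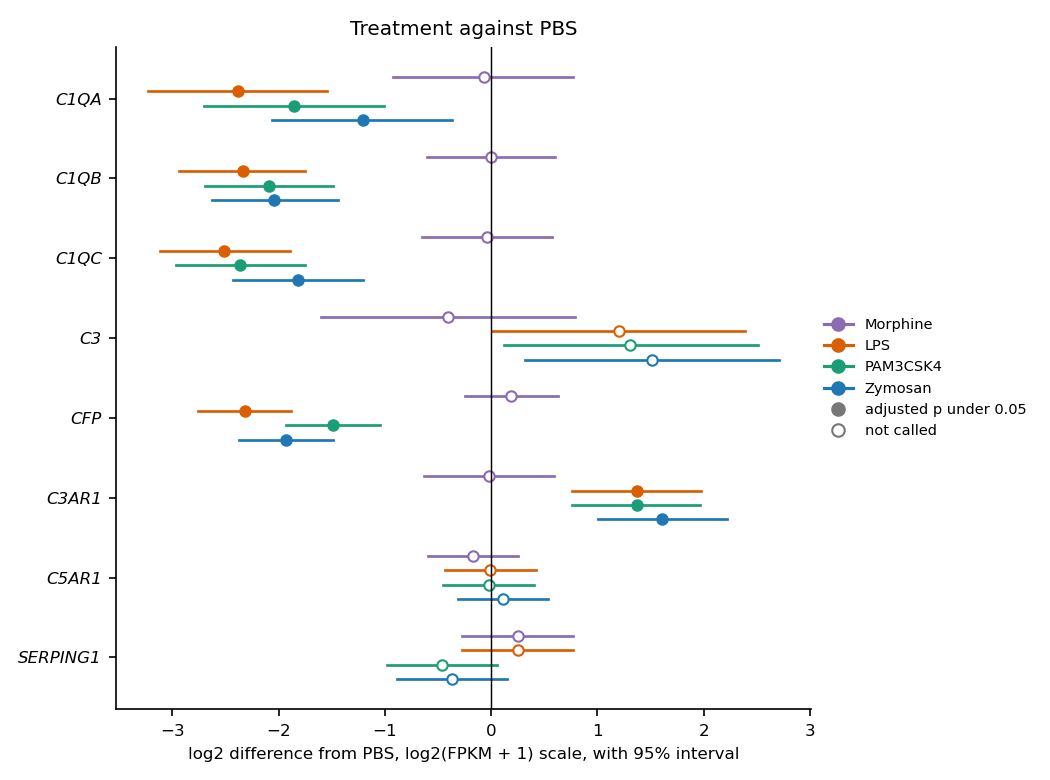
Log2 difference of each tested complement gene from PBS (horizontal axis, log2(FPKM + 1) scale) with its 95% interval for Morphine, LPS, PAM3CSK4 and Zymosan, filled where limma's adjusted p was under 0.05. C1QA, C1QB, C1QC and CFP lie to the left and C3AR1 to the right for the 3 agonists, and no interval of Morphine is clear of 0.

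Counted together, 5 of the 8 tested members were called after LPS, 1 higher and 4 lower, where 32.4% of all tested genes were called, 5.02% higher and 27.3% lower (limma adjusted p under 0.05). After PAM3CSK4 the members again gave 1 higher and 4 lower beside 28.2% of all genes (5.62% higher, 22.6% lower), and after zymosan 1 higher and 4 lower beside 18.9% (4.66% higher, 14.2% lower). The 3 counts share the PBS libraries. By overlap alone, 5 members after LPS, 6 after PAM3CSK4 and 5 after zymosan did not overlap with PBS, as was the case for 31.5%, 30% and 26.1% of all genes. The members' median log2 difference was -1.16 after LPS, -0.98 after PAM3CSK4 and -0.79 after zymosan, beside medians of -0.37, -0.27 and -0.18 over all tested genes. Rescaling moved those medians of all genes to 0 and changed the split of their calls: the share of higher calls went from 15.5% to 47.7% after LPS, from 20% to 47.3% after PAM3CSK4 and from 24.7% to 47.5% after zymosan.

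Under that rescaling the members kept their directions with the agonists apart from C5AR1 after LPS and PAM3CSK4, whose values near 0 changed sign. C1QB was at -1.93, -1.78 and -1.83, C1QC at -2.12, -2.07 and -1.62, CFP at -2.02, -1.22 and -1.72 and C3AR1 at 1.79, 1.67 and 1.81 for LPS, PAM3CSK4 and zymosan, all still called. With C3 added and C1QA lost for zymosan, the counts became 2 higher and 4 lower after LPS and after PAM3CSK4, and 2 higher and 3 lower after zymosan. In the 13 libraries of the larger set alone, each agonist gave 1 higher and 4 lower member. Between the sets, after the group means, the members differed by -0.61 (C3) to 0.15 (C1QA) on the log2 scale, the smaller set minus the larger, beside a median of -0.36 over all genes.

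Morphine was compared with PBS to ask whether an opioid changes these transcripts. Group means were close for most members: C1QB was at 58.4 ± 28.8 FPKM with morphine and 55.2 ± 14.7 in PBS, C1QC at 20.1 ± 10.7 and 19.6 ± 7.12, C1QA at 10.5 ± 5.59 and 10.3 ± 2.95, and C3AR1 at 25.9 ± 7.48 and 25.8 ± 4.98 (SD, n = 4 each). Replicate 2 was the highest morphine library for each C1q chain, at 98.4 FPKM for C1QB, 34.4 for C1QC and 17.7 for C1QA. No member was called and none had an unadjusted p under 0.05 (limma). Of all tested genes 0% were called, and voom on the recovered fragments called 0. In the main fit 104 had an unadjusted p under 0.05, fewer than evenly spread p-values would give, so that fit may be conservative. The number was 542 with the replicate number as a block and 235 with a term for the 2 library sets, again with none called.

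The precision differed by gene. The 95% interval of the morphine difference on the log2 scale was -0.59 to 0.25 for C5AR1, -0.25 to 0.63 for CFP, -0.27 to 0.77 for SERPING1, -0.60 to 0.60 for C1QB, -0.65 to 0.57 for C1QC, -0.63 to 0.59 for C3AR1 and -0.92 to 0.77 for C1QA. C3 was at 0.525, 0.532, 0.709 and 0.941 FPKM in morphine libraries 1 to 4, and 0.677 ± 0.196 on average against 1.3 ± 0.711 in PBS. Its morphine libraries overlapped with PBS 1 and PBS 3, and the difference of -0.41 had an interval of -1.60 to 0.79 (limma adjusted p = 0.897). A change of C3 within that range was not detectable here.

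The agonists were also compared with each other. Comparisons with zymosan cannot be read as receptor against receptor. It also engages dectin-1, and it was given as particles at 100 ug/mL and the others at 1 ng/mL. None of the 8 tested members was called in any of these 3 comparisons. CFP came nearest between PAM3CSK4 and LPS, at 2.01 ± 0.450 and 0.701 ± 0.311 FPKM (SD, n = 4 each), without overlap between the groups, as in 2.02% of all genes. The difference was 0.83 (SE 0.21), with an unadjusted p of 0.000918 and a limma adjusted p of 0.813. SERPING1 was at 1.85 ± 0.505 FPKM after PAM3CSK4 and 3.76 ± 1.38 after LPS, again without overlap (-0.71, limma adjusted p = 0.988), and was called only with library quality weights (-1.14, adjusted p = 0.0367).

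Of all tested genes 0.0339% were called between PAM3CSK4 and LPS, 0.0903% between zymosan and LPS and 0% between zymosan and PAM3CSK4. C1QA was 1.17 higher on the log2 scale after zymosan than after LPS (limma adjusted p = 0.465) and C1QC 0.69 higher (adjusted p = 0.576), the latter without overlap, as were 4.91% of all genes in that comparison. By group mean, each C1q chain came in the order morphine, PBS, zymosan, PAM3CSK4, LPS, and CFP in the order morphine, PBS, PAM3CSK4, zymosan, LPS. In both orders the neighbours morphine and PBS, and the agonists among themselves, did not differ past the threshold, whereas the step from PBS to the next agonist was called.

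The changes placed the members differently among all transcripts. By mean level C1QB went from the 87.3 percentile of tested genes in PBS to the 57.4 after LPS, C1QC from 67.9 to 23.9, C1QA from 50.3 to 13 and CFP from 41.4 to 5.3. The mean of C3 went from the 6.1 to the 40.7 percentile, although its LPS difference was not called (limma adjusted p = 0.115). That LPS mean leans on LPS 4, at 12.7 FPKM beside 1.62 to 3.38 in the other LPS libraries. The ratio of C3 to C1QB within a library, which no scaling affects, was 0.0112 to 0.0300 in PBS and 0.00541 to 0.0174 with morphine. It was 0.160 to 1.26 after LPS, 0.131 to 0.826 after PAM3CSK4 and 0.0862 to 0.976 after zymosan, so that no agonist library overlapped with a library of the other groups. The fall of C1QB is part of that separation, so the ratio is no separate support for a rise of C3. C3 alone overlapped with PBS in each agonist group.

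Across the 20 libraries, C1QB and C1QC had a Pearson r of 0.96 on the log2 scale, and C1QA had 0.79 with C1QB and 0.83 with C1QC. The libraries share the step from PBS to agonist, which carries much of such a value. CFP had r of 0.90 with C1QB, and C3AR1 had -0.85 with CFP. Among tested genes with a mean of at least 5 FPKM, those most like C1QB were C1QC, ANXA3 and RT1-DMA (0.96 each), and those most like C1QC were DEK and SSB (0.97 each) and RT1-DMA (0.96). For C1QA they were CCNB2, ORC6 and PMF1 (0.92 each), and for CFP ASF1B and EPSTI1 (0.95 each) and ANP32E (0.94). For C3AR1 they were HEATR6 (0.96), NFKBIZ and ITGAL (0.94 each), for C3 RAB11FIP1 (0.91), ADGRE1 (0.89) and CYB5B (0.86), and for C5AR1 WIPI2 (0.92), CD151 and TMEM86A (0.91 each). SERPING1 had no close match, with LOC314140 at 0.64, SLK at 0.61 and DUSP22 at 0.59.

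Around these 9 genes, 46 others of the complement system were listed by function, from the lectins and C1 proteases to the terminal components, regulators and receptors, of which 42 were in the table and 16 passed the filter. The other 26 did not, and 11 of them were at 0 in all libraries, among them, as examples chosen after their values were seen, MBL1 and MBL2, the mannose-binding lectins, C6, C8A and C8B of the membrane attack complex, and CFI, which inactivates C3b. After LPS 0 of the 16 rose and 8 fell, after PAM3CSK4 1 rose and 6 fell, and after zymosan 1 rose and 4 fell (limma, beside the shares of all genes given above). The falls after LPS and PAM3CSK4 include C1R and COLEC12, which passed the filter through the groups where they were high. Such a filter favours a fall, so those counts are no support for one. The median log2 differences of the 16 were -0.74, -0.57 and -0.40. CD59, FCNA and C1QBP, the last named after its values were seen, fell with all 3 agonists.

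**Figure D4:**
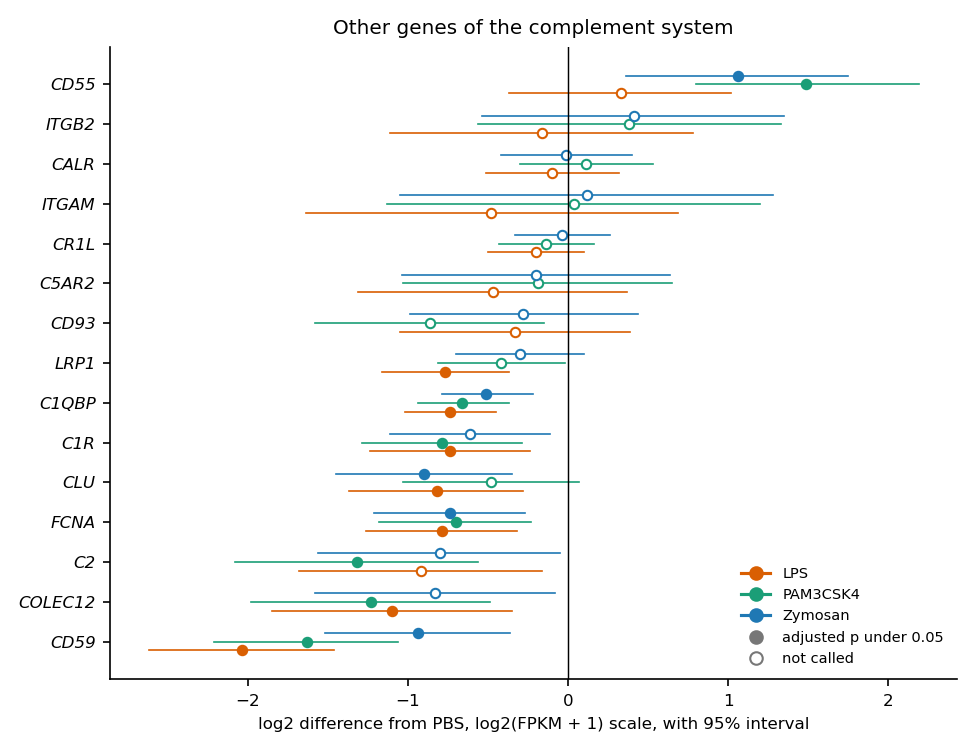
Log2 difference from PBS (horizontal axis, log2(FPKM + 1) scale) with its 95% interval for 15 of the 16 tested genes of the complement system outside the 9 members, for LPS, PAM3CSK4 and Zymosan, filled where limma's adjusted p was under 0.05. CD59 lies farthest to the left and CD55 to the right.

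The inhibitors did not all go one way. CD59, which blocks the membrane attack complex on a cell's own surface, went from 33.7 ± 12.5 FPKM in PBS to 7.22 ± 1.94 after LPS, 9.85 ± 2.15 after PAM3CSK4 and 16.6 ± 4.26 after zymosan (SD, n = 4 each), differences of -2.04, -1.63 and -0.94 (limma adjusted p = 1.5e-05, 0.000182 and 0.0207). CD55, which speeds the decay of convertases, went from 1.87 ± 0.784 FPKM to 7.08 ± 2.10 after PAM3CSK4 and 5.41 ± 3.21 after zymosan, rises of 1.49 and 1.06 (adjusted p = 0.00213 and 0.0314). After LPS its value was 0.33 (adjusted p = 0.471), and a difference between the agonists was not called. CLU, clusterin, fell after LPS (-0.82, limma adjusted p = 0.0214) and zymosan (-0.90, adjusted p = 0.0195), and was not called after PAM3CSK4 (-0.48, adjusted p = 0.193).

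Among the genes that start the cascade, C2, the protease of the classical C3 convertase, fell after PAM3CSK4 from 37.6 ± 6.45 to 16.2 ± 7.64 FPKM (-1.32, limma adjusted p = 0.00983), and was not called after LPS (-0.92, adjusted p = 0.0586) or zymosan (-0.80, adjusted p = 0.141). FCNA, a ficolin of the lectin route, fell by 0.79, 0.70 and 0.74 after LPS, PAM3CSK4 and zymosan (adjusted p = 0.0116, 0.0257 and 0.0268). C1R, the protease bound to C1q, was at 0.970, 1.75, 0.769 and 1.68 FPKM in PBS libraries 1 to 4, at 0.471, 0.261, 0.167 and 0.533 after LPS, and was listed at 0 in PAM3CSK4 replicate 1. It reached 1 FPKM in 2 PBS and 3 morphine libraries and in no agonist library, so it passed the filter only through the groups where it was high. It was called lower after LPS (-0.74, adjusted p = 0.0234, lost with voom at 0.0718) and PAM3CSK4 (-0.79, adjusted p = 0.018), and not after zymosan (-0.61, adjusted p = 0.0863). COLEC12, a scavenger receptor with a collectin domain, was at 1.12, 1.26, 4.09 and 2.76 FPKM in PBS libraries 1 to 4 and was listed at 0 in LPS replicate 2. It reached 1 FPKM in 4 PBS, 3 morphine, 1 LPS and 1 zymosan library and in no PAM3CSK4 library, and so passed the filter through the groups where it was high. It was called lower after LPS (-1.10, adjusted p = 0.0247) and PAM3CSK4 (-1.23, adjusted p = 0.0139, 0.0507 with voom), and not after zymosan (-0.83, adjusted p = 0.121).

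These calls outside the 9 members depended more on the fit than those of the C1q chains. After rescaling, 2 of the 16 were called lower after LPS and none higher, CD59 (-1.63, limma adjusted p = 6.62e-06) and COLEC12 (-0.92, adjusted p = 0.0345). The filter favours a fall of COLEC12, as said above, so its call is no support for one. After PAM3CSK4 2 were then higher and 4 lower, and after zymosan 1 higher and 2 lower. With the replicate block, 10 were called after PAM3CSK4 (1 higher, 9 lower) and 9 after zymosan (1 higher, 8 lower). Leaving out PBS 2, PBS 4, LPS 1 or LPS 2 left 5 called after LPS, and leaving out PBS 2, PBS 3, zymosan 1, zymosan 2 or zymosan 4 left 2 or 3 called after zymosan.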

How the data were processed

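RNA of 20 samples, 4 per group, was made into libraries by Smart-Seq2 and Nextera XT, per the labels' protocols. The authors deposited FPKM values for 17310 gene symbols and no counts. Tools listed in the submitters' processing notes, without role or order, are featureCounts 1.4.6, Cufflinks 2.2.1, HISAT2 2.0.5.1 and DESeq2, with the build rn6; the annotation used is not given in these sources. FPKM is relative to a library's total, so a large rise of some genes lowers the rest. Morphine at 10 uM, also in the protocol, was not analysed here.

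Groups and replicate numbers came from the labels. Log2(FPKM + 1) was fitted in limma 3.58.1 (R 4.3.3) with 5 group means over all 20 libraries, moderated variances and a mean-variance trend, for the 8858 genes that reached 1 FPKM in 4 or more libraries. Contrasts were tested two-sided with Benjamini-Hochberg adjustment over all tested genes within each contrast, and an adjusted p under 0.05 was called. Every adjusted p in the text is limma's, and 95% intervals are its moderated ones. The script was tested on simulated data.

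Since low FPKM values are whole multiples of what 1 fragment is worth, whole fragments were recovered, within 0.01 fragment for low values and at most 0.1, for 10556 of 11251 genes (93.8%) above 0 in at least 3 libraries; members lay within 0.0114 of a whole number. The smallest fitting numbers were taken, so those of some genes, among them C3 and C3AR1, may be a multiple of the real ones. The recovered numbers were used for depth and for 1 alternative, limma's voom.

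The members were chosen, and the lists of further complement genes, markers and motifs written, with earlier results of these data known. All 9 members are named. Of the further complement genes those called with an agonist are named, at most 8, by the largest difference, and for each member the 3 genes of highest Pearson r. The values of 1 of these further genes are not reported here, though it is in the counts. Other names are said to be chosen after their values were seen.

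Replicate numbers were taken to pair groups where residuals of same-numbered libraries correlated above 0.1 in every pair. This held for PAM3CSK4 with PBS (0.37 to 0.74), zymosan with PBS (0.32 to 0.82) and zymosan with PAM3CSK4 (0.53 to 0.79). Libraries of different numbers ran from -0.56 to 0.27, -0.56 to 0.34 and -0.61 to 0.31 in these comparisons. Some of them thus passed 0.1 too, and for zymosan with PBS the ranges overlapped. Other settings tried were no filter, a pseudocount of 0.1 FPKM, median-ratio rescaling, quality weights, the replicate block, only the 2 groups compared and leaving out each library. Added after seeing the data were a term for the library sets found as the first component of the residuals, the 13 libraries of the larger set, that term after rescaling, a block within PBS, PAM3CSK4 and zymosan, and voom. Promoters were matched by symbol to RefSeq (GRCr8), 5 of 9 members. Plots were drawn with matplotlib 3.10.9 in Python 3.11.15.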

Additional observations from a re-analysis of the deposited data

Results flagged for a closer look

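In 4 of the 45 pairs of member and group, 1 library lay far from the other 3 by Dixon's criterion, which chance meets in about 1 of 20 groups. SERPING1 was at 4.37 FPKM in zymosan 3, and at 1.29 to 1.61 FPKM in the other zymosan libraries; without it the zymosan difference from PBS was called. C3 was at 12.7 FPKM in LPS 4 and at 1.62 to 3.38 FPKM in the other LPS libraries. C1QB was at 8.74 FPKM in LPS 1, close below the 10.1 to 10.2 FPKM of the others. CFB was at 0.0 FPKM in PAM3CSK4 replicate 1 and at 0.0517 to 0.0588 FPKM, 1 fragment each, in the others.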

How the results depend on the processing

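C1QB, C1QC, CFP and C3AR1 with each agonist, and C1QA with LPS and PAM3CSK4, kept direction and call in every alternative run, which included leaving out each library. C1QA with zymosan lost its call in 11 of 31 alternatives, and C3 gained one in 4 of 30 with LPS, 7 of 31 with PAM3CSK4 and 8 of 31 with zymosan (limma adjusted p from 0.0117 to 0.314, 0.00156 to 0.273 and 0.000886 to 0.231). C5AR1 with LPS, at -0.01, became 0.41 and called (adjusted p = 0.026) with a library-set term after rescaling. The number of members called stayed at 5 with LPS, and at 5 or 6 with PAM3CSK4 and 4 to 6 with zymosan on leaving out 1 library; with quality weights it was 7 with PAM3CSK4, where SERPING1 was called (-0.60, adjusted p = 0.0303). Between PAM3CSK4 and LPS it was 0, and 1 with quality weights.

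Genes called with LPS (2866) became 4641 with quality weights, 4340 with the replicate block and 4458 with the set term. With PAM3CSK4 (2496) they became 4297 with weights, 4513 with the set term, 4279 in the 13 libraries, 3799 with the set term after rescaling and 5013 with the block in 3 groups. With zymosan (1670) these were 3497, 3366, 3533, 2851 and 3975, and 2619 with the full replicate block. Between PAM3CSK4 and LPS (3), 37 were called with weights, 7 with the block, 11 with the set term, 13 with that after rescaling, 1 in the 13 libraries, 0 with the small pseudocount, no filter, only the 2 groups or voom, and 0 to 3 on leaving out 1 library. Between zymosan and LPS (8) the values were 183 with weights, 152 with the block, 96 with the set term, 65 after rescaling too, 16 in the 13 libraries, 3 with only the 2 groups, 1 with voom and 2 to 12 on leaving out 1 library. Between zymosan and PAM3CSK4 (0) they were 1 with no filter, 18 with weights, 8 with the block, 8 with the set term, 3 after rescaling too, 1 in the 13 libraries and 60 with the block in 3 groups. For morphine (0) the count was 0 in all alternatives but 1 gene without Morphine 3.

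Of the 16 further complement genes, 8 called with LPS became 2 after rescaling and 5 to 9 on leaving out 1 library. The 7 with PAM3CSK4 became 11 with weights, with the set term after rescaling and with the block in 3 groups. The 5 with zymosan became 3 after rescaling, 9 with weights, the block, the set term (alone or after rescaling) and the 13 libraries, 11 with the block in 3 groups, and 2 to 7 on leaving out 1 library. Between zymosan and LPS (0) 1 was called with weights, the block and the set term (alone or after rescaling), and between zymosan and PAM3CSK4 (0) 1 with the block in 3 groups. The cause of these changes was not tested. For LPS and morphine the replicate numbers did not pair with PBS, with residual correlations from -0.19 to 0.54 and from -0.14 to 0.76. With the block C3 was called with LPS (1.20, adjusted p = 0.0117), and morphine gave 542 genes at an unadjusted p under 0.05 and none called. The block changed no call of a member other than that of C3 with each agonist. Few fragments limit C1QA and CFP with LPS, at 1 to 23 and 4 to 15 per library, and CFB throughout.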

Other observations

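Complement receptor 3, the integrin through which microglia take up targets marked by C3 fragments, is the pair of ITGAM (CD11b) and ITGB2. Both were chosen for mention after their values were seen. ITGAM was at 14.9, 36.7, 42.9 and 38.0 FPKM in PBS libraries 1 to 4 and at 13.3, 9.76, 41.3 and 40.8 with LPS. After the group means, the smaller set of 7 libraries minus the larger was at -1.59 on the log2 scale for ITGAM and at -1.22 for ITGB2, beside -0.36 for the median gene. Neither was called with any agonist (limma). CR1L, a regulator related to complement receptor 1, was at 99.3 ± 4.35 FPKM in PBS, 86.8 ± 10.7 with LPS, 90.9 ± 13.4 with PAM3CSK4 and 96.7 ± 3.54 with zymosan (SD, n = 4 each), and was likewise not called; it too was chosen after its values were seen.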
